A study of Mus musculus with 8 samples.

Results

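The genes described here are 9 markers of naive and undifferentiated mouse embryonic stem cells other than the core transcription factors, namely Zfp42 (Rex1), Nr0b1 (Dax1), Prdm14, Utf1, Dppa3 (Stella), Dppa5a (Esg1), Fbxo15, Tdgf1 (Cripto) and Gdf3. They were taken by symbol and stand in the tables as ENSMUSG00000051176 (Zfp42), ENSMUSG00000025056 (Nr0b1), ENSMUSG00000042414 (Prdm14), ENSMUSG00000047751 (Utf1), ENSMUSG00000046323 (Dppa3), ENSMUSG00000060461 (Dppa5a), ENSMUSG00000034391 (Fbxo15), ENSMUSG00000032494 (Tdgf1) and ENSMUSG00000030117 (Gdf3). All 9 of 9 were present in the footprint table of 12818 genes and in the total RNA table of 13436 genes, which share 12416 genes. All 9 passed the filter on low reads in both tables.

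J1 cells, an embryonic stem cell line of strain 129S4/SvJae, carried shRNAs against eIF4A2 (the protocol names sheIF4A2-2 and sheIF4A2-3) or control shRNAs (shNT and shGFP). eIF4A2 is an RNA helicase of the DEAD-box family and a paralog of the eIF4A1 that unwinds mRNA leaders during initiation. The cells of every group were feeder-free on gelatin in serum with LIF, spent 3 days in puromycin at 1 μg/mL and were taken on day 4.5 after infection, with 0.1 mg/mL cycloheximide given for 1 min before lysis. Ribosome-protected fragments (footprints) and total RNA were sequenced in 2 knockdown and 2 control libraries each, which the protocol calls biological replicates. The labels do not say which shRNA went into which replicate, so the spread between 2 libraries of a group may hold the difference between 2 hairpins. No rescue or uninfected group is among the samples.

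Naive stem cells resemble the epiblast of the blastocyst before implantation and are held in that state by LIF signalling and a network around Oct4, Sox2 and Nanog. As cells move toward the formative and primed states of the epiblast after implantation, markers such as Zfp42 are shut off while factors such as Otx2 and Fgf5 come on. Cultures in serum with LIF are mixed, and Zfp42 reporters are widely used to separate cells near the naive state from those leaving it. The markers themselves do different jobs: Zfp42, Nr0b1, Prdm14 and Utf1 act on transcription or chromatin, Dppa3 protects DNA methylation states in early embryos, Dppa5a binds RNA, Fbxo15 is an F-box protein of ubiquitin ligases, and Tdgf1 and Gdf3 belong to NODAL signalling at the cell surface.

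Values are CPM, a gene's reads divided by an effective library size on the CPM scale, and are not divided by gene length, so levels are compared between libraries and never between genes. Between 7947827 and 10682677 reads stood behind each footprint library and between 8564582 and 12840349 behind each total RNA library. Read numbers of footprint control 2, here and below, are uncertain, because whole reads there could not be told from rounding. The knockdown target Eif4a2 had 311 and 153 CPM in footprints of knockdown 1 and 2 against 395 and 409 CPM in control 1 and 2, and 583 and 617 against 739 and 969 CPM in total RNA. It was lower in every knockdown library of both assays, and in footprints the knockdown libraries differed from each other by more than the controls did. All 6 stem cell markers fixed as a check of cell type (Pou5f1, Nanog, Sox2, Sall4, Lin28a and Esrrb) were present, with a summed level between 2509 and 3091 CPM in footprints. Of 12 fibroblast markers 6 were in the tables, among them Col1a1 but not Col3a1, Lum, Dcn or Postn, with sums of 39.0 and 42.7 CPM in knockdown footprints and 59.2 and 48.2 CPM in control. Of 17 germ layer genes 11 were measured in footprints, with sums of 119 and 132 CPM in the knockdown and 96.6 and 80.2 CPM in the control. Much of that difference lay in Nes alone, at 39.3 and 45.9 CPM in the knockdown against 17.6 and 13.7 CPM in the control. Any part of fibroblasts or germ layer cells in the values below was not tested.

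Zfp42 and Nr0b1 are the pair of markers that differed most between the groups in both assays, and their promoters are printed here so that the regulatory sequence can be read beside the values. Promoter windows were taken from RefSeq (build GRCm38.p6) for 4 of the 9 markers, Zfp42, Nr0b1, Utf1 and Tdgf1. Promoters of the remaining markers were not searched. Each window holds the 250 bases before the gene's start, 5′ to 3′ on the gene's own strand, with capitals marking matches to 8 short motifs searched on both strands. The Zfp42 window lies at chr8:43307010-43307259 on the minus strand and the Nr0b1 window at chrX:86191525-86191774 on the plus strand.
Zfp42: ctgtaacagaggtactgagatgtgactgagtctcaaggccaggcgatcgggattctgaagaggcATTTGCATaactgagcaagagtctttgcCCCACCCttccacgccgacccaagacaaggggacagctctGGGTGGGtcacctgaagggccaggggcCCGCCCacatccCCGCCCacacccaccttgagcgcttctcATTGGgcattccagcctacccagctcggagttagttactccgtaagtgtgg
Nr0b1: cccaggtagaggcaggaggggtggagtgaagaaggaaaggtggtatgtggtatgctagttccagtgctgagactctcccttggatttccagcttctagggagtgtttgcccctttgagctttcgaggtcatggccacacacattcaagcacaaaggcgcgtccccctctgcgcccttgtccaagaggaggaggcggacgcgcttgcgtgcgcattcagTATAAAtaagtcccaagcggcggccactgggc
In the Zfp42 window the capitals mark, in order, an octamer (ATTTGCAT, the letters bound by Oct4 family factors) whose first base lies 186 bases before the start, KLF elements at 158 and 118 bases (CCCACCC and its reverse complement), GC boxes at 91 and 79 bases (GGGCGG read from the other strand) and a CCAAT box, also from the other strand, at 51 bases. None of these matches shared a base with another. In the Nr0b1 window the capitals mark a TATA box (TATAAA) at 32 bases. The octamer stood in 1.60% of 32851 mouse promoter windows of the same length, the KLF element in 15.8%, the GC box in 32.7%, CCAAT in 33.8% and TATAAA in 12.4%. The other motifs searched were AAGGTCA (an ERR element, in 4.08% of windows), ACAATG (a SOX element, 10.7%) and TTCNNNGAA (a STAT element, 7.02%), and neither window held their letters. The Utf1 window held 4 GC boxes and the Tdgf1 window 1, with no other match. A match is a description of letters and not of binding, and the letters of Zfp42 and Nr0b1 shared no motif of the 8.

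The 9 markers did not move as one group. Zfp42 and Nr0b1 were far lower in the knockdown in both assays, Tdgf1 was moderately lower in both, Dppa3 was higher in both on few reads, and the other 5 (Prdm14, Dppa5a, Fbxo15, Utf1 and Gdf3) had values that overlapped between groups in at least 1 assay. In footprints 4 markers were lower in both knockdown libraries than in both controls (Zfp42, Nr0b1, Dppa5a and Tdgf1), where 22.5% of all genes tested were, and 2 were higher (Dppa3 and Utf1), where 22.3% were. In total RNA 4 were lower (Zfp42, Nr0b1, Prdm14 and Tdgf1; 24.6% of all genes) and 1 was higher (Dppa3; 23.3%). In both assays at once, 3 markers were lower (12.4% of all genes) and 1 was higher (12.3%). With so many genes of the whole table separated between 2 and 2 libraries, the counts of 3 and 4 out of 9 are small numbers and no result about the group. The median log2 fold change, knockdown minus control, over the 9 was -0.27 in footprints and -0.19 in total RNA, against 0.01 and 0.00 over all genes tested.

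**Figure D1:**
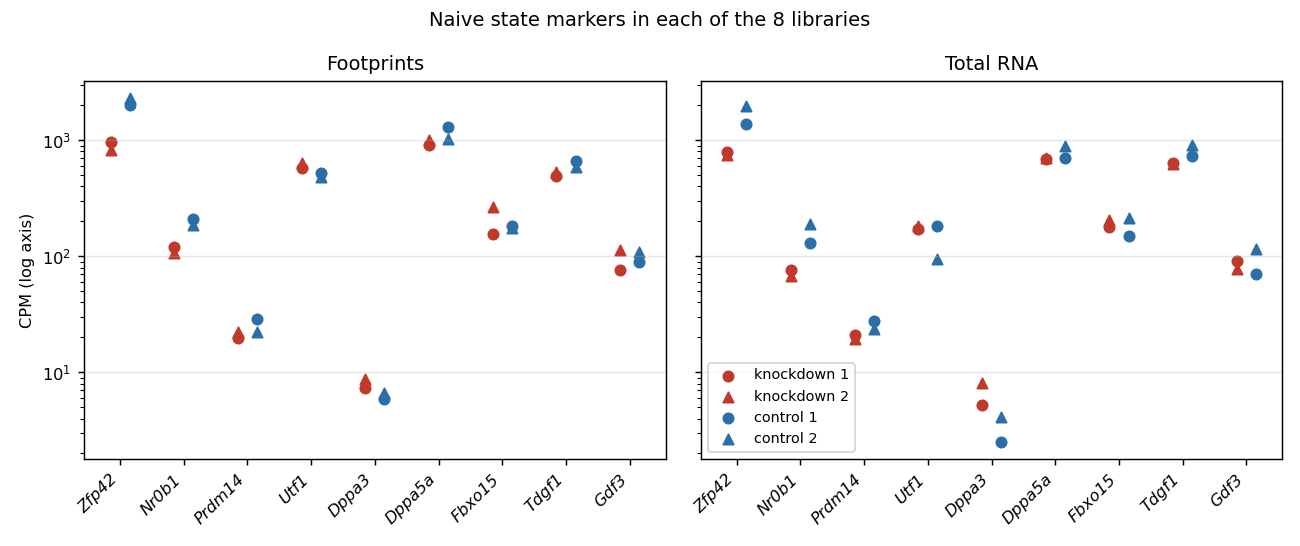
CPM of the 9 markers (log axis) in footprints (left) and total RNA (right), with each point 1 library, red for knockdown and blue for control, circles for replicate 1 and triangles for replicate 2. The red points of Zfp42 (820.2 and 959 CPM in footprints) lie well below the blue ones (2027 and 2300.5 CPM). Those of Fbxo15 and Gdf3 lie on both sides of the controls in footprints and between the controls in total RNA.

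No marker passed limma's threshold (Benjamini-Hochberg adjusted p of 0.05 over all genes) in footprints, in total RNA or in the ratio between them, and neither did any other gene (0% of genes called in each). At an unadjusted p under 0.05, limma counted 1636 genes in footprints, among them 2 markers, Zfp42 and Nr0b1, both lower (6.74% of all genes tested were lower at this threshold and 6.12% higher). In total RNA it counted 2002 genes, with Zfp42 and Nr0b1 lower (8.08% of all genes) and Dppa3 higher (6.82%). The edgeR quasi-likelihood test on whole reads called 0 markers in either assay, with 3 genes called in footprints (0.0236% of all genes, on 3 libraries) and 0 in total RNA. In 1 limma fit of all 8 libraries Zfp42 passed in footprints (adjusted p = 0.0306, where 0.372% of genes were called lower), and Zfp42 and Nr0b1 passed in total RNA (adjusted p = 0.0450 and 0.0300, where 0.502% were). DESeq2 on whole reads called Zfp42 in footprints of 3 libraries (10 genes lower, 0.299% of the 3350 that it gave an adjusted p) and both in total RNA (1.33% of 12654). The authors' deposited table, made with another fit of the same libraries, called Zfp42 and Nr0b1 lower in both assays and none of the other 7 markers in either. There, lower calls were made for 0.889% of all genes in footprints, 3.19% in total RNA and 0.652% in both, and higher calls, of which the markers had 0, for 0.788% and 2.21%.

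Zfp42, a zinc finger protein related to YY1 and the best known marker of the naive state, showed the most negative fold change of the 9 in footprints. Its footprints were 959 and 820.2 CPM in knockdown 1 and 2 and 2027 and 2300.5 CPM in control 1 and 2. Its total RNA was 796 and 748 CPM in the knockdown and 1390.1 and 1983 CPM in the control. Both knockdown libraries were thus below both controls in each assay, and the controls were much farther apart in total RNA than in footprints. The knockdown mean was 41.1% of the control mean in footprints and 45.8% in total RNA, with between 7840 and 23211 reads behind each footprint value. The log2 fold change was -1.28 ± 0.20 (SE) in footprints (limma adjusted p = 0.0703) and -1.11 ± 0.21 in total RNA (limma adjusted p = 0.117). The authors' deposited table gives Zfp42 a log2 fold change of -1.28 with an FDR of 0.0238 in footprints and -1.13 with an FDR of 0.000618 in total RNA. Among all genes tested Zfp42 stood at percentile 0.401 of the footprint fold changes and percentile 0.826 of those in total RNA, counted from the most negative. Fewer cells that express a gene and less of its RNA per cell cannot be told apart in these bulk libraries. Leaving out a single library changed the limma call of Zfp42: without footprint knockdown 1 it passed (adjusted p = 0.0441, where 0.157% of genes did), and without total RNA control 1 or control 2 it passed as well (adjusted p = 6.95e-09 and 3.80e-06), in fits that called 46.1% and 25.4% of all genes.

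Nr0b1, an orphan nuclear receptor that lacks the usual DNA-binding domain and acts as a corepressor, was the other marker with a large difference in both assays. Its footprints were 121 and 107 CPM in the knockdown and 211 and 185 CPM in the control. Its total RNA was 76.2 and 67.2 CPM against 131 and 190.1 CPM. The groups did not overlap in either assay, and knockdown means were 57.7% of control in footprints and 44.6% in total RNA. Its log2 fold change was -0.79 ± 0.16 in footprints (limma adjusted p = 0.125) and -1.13 ± 0.20 in total RNA (limma adjusted p = 0.114), from 1027 to 1990 footprint reads and 894 to 1714 total RNA reads per library. In the authors' deposited table Nr0b1 has -0.79 with an FDR of 0.0317 in footprints and -1.16 with an FDR of 5.07e-05 in total RNA. Leaving out total RNA control 1 or control 2 again brought limma's adjusted p to 1.85e-08 and 8.17e-06, while in footprints no library left out brought it under the threshold.

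**Figure D2:**
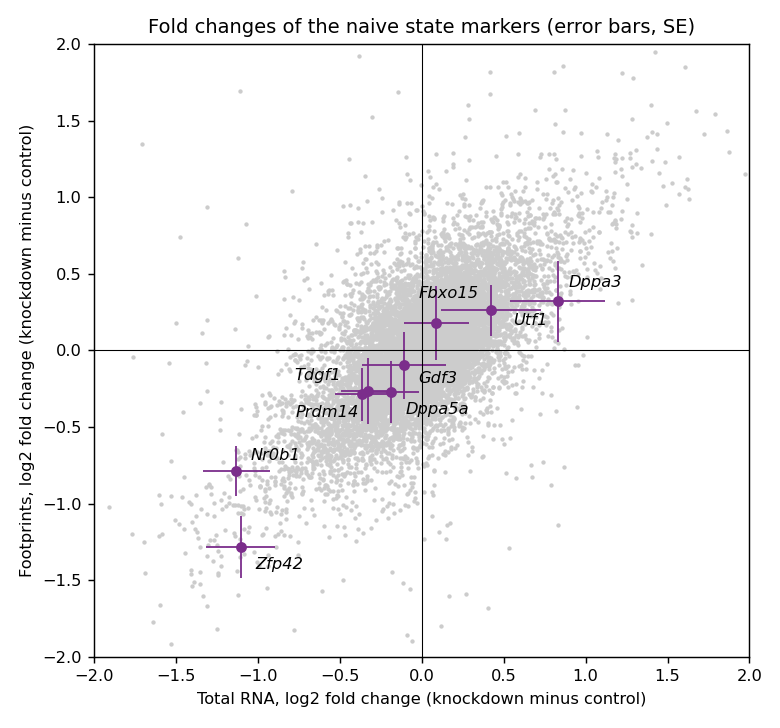
Log2 fold change, knockdown minus control, in total RNA (horizontal) and footprints (vertical) for the 9 markers (purple, bars SE of the limma fit) over all genes measured in both assays (grey); genes beyond 2 in either direction are outside the axes. Zfp42 (-1.11, -1.28) and Nr0b1 (-1.13, -0.79) lie at the lower left edge of the cloud, and Dppa3 (0.83, 0.32) toward the right.

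Prdm14, a PR-domain protein that represses FGF signalling and DNA methyltransferase genes in naive cells, was covered by few reads. It had 19.6 and 22.2 CPM in knockdown footprints and 28.9 and 22.1 CPM in control footprints, so the groups overlapped by a narrow margin. In total RNA it had 21.0 and 19.4 CPM against 27.9 and 23.5 CPM, with no overlap. The log2 fold change was -0.27 ± 0.22 in footprints and -0.33 ± 0.17 in total RNA (limma adjusted p = 0.648 and 0.418), from 174 to 272 reads per library in footprints. Its total RNA was -0.45 and passed limma without control 2 (adjusted p = 0.0136), and was -0.21 without control 1.

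Utf1, a chromatin-associated factor of undifferentiated cells, went the other way in footprints, with 580.0 and 631 CPM in the knockdown and 523 and 487 CPM in the control. Its total RNA was 171 and 182 CPM in the knockdown and 183 and 94.0 CPM in the control. The footprint groups did not overlap, and in total RNA control 1 sat with the knockdown libraries while control 2 was far below them. Fold changes on the log2 scale were 0.26 ± 0.17 in footprints and 0.42 ± 0.30 in total RNA (limma adjusted p = 0.554 and 0.566). The total RNA value rested on control 2: it was -0.055 without that library, and 0.90 without control 1, where limma's adjusted p was 3.18e-07.

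Dppa3, a maternal protein that shields methylation marks and restrains Uhrf1, had the fewest reads of any marker and was the 1 marker higher in both assays. It had 7.31 and 8.79 CPM in knockdown footprints against 5.84 and 6.64 CPM in control, and 5.21 and 8.12 CPM against 2.51 and 4.10 CPM in total RNA. These values rest on 55 to 84 reads per library in footprints and on 22 to 108 in total RNA. The total RNA mean of the knockdown was 2.01-fold that of the control, with a log2 fold change of 0.83 ± 0.29 (limma adjusted p = 0.279). In footprints the log2 fold change was 0.32 ± 0.26 (limma adjusted p = 0.656). The authors' deposited table gives Dppa3 a total RNA log2 fold change of 1.01 with an FDR of 0.0900. Without total RNA control 2 the total RNA value was 1.099 and limma called it (adjusted p = 0.00292), and without knockdown 2 or control 1 it was 0.55 and 0.56 and was not called. Dppa3 is also a gene of the early cleavage embryo, and 6 of 10 genes of the 2-cell-like state that were measured summed to 45.5 and 78.0 CPM in knockdown footprints against 15.0 and 18.04 CPM in control, and to 57.6 and 97.8 against 28.1 and 29.6 CPM in total RNA. Whether these belong to the same cells was not tested.

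Dppa5a, a KH-domain RNA-binding protein of stem cells and early embryos, had 906 and 998 CPM in knockdown footprints and 1301 and 1014 CPM in control footprints. Its total RNA was 686 and 706 CPM against 702 and 896 CPM. The footprint groups were separated by a small gap between knockdown 2 and control 2, and the total RNA groups overlapped. The log2 fold change was -0.27 ± 0.20 in footprints and -0.19 ± 0.17 in total RNA (limma adjusted p = 0.614 and 0.656). The latter rested on the choice of control: without total RNA control 1 it was -0.36 and passed limma (adjusted p = 0.000805), and without control 2 it was -0.012.

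Fbxo15, the substrate-binding part of an SCF ubiquitin ligase and a classic target of Oct4 and Sox2, showed no steady direction. In footprints the knockdown libraries were 155 and 266 CPM, on either side of the controls at 184 and 176 CPM. Total RNA was 178 and 205 CPM in the knockdown, both within the range of the controls at 151 and 213 CPM. Its log2 fold change was 0.18 ± 0.24 in footprints and 0.09 ± 0.20 in total RNA (limma adjusted p = 0.798 and 0.872). It turned negative without footprint knockdown 2 (-0.21), and in total RNA without knockdown 2 (-0.013) or control 1 (-0.16), while without control 2 it was 0.34 with a limma adjusted p of 0.00941.

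Tdgf1 and Gdf3 are the markers at the cell surface: Gdf3 is a ligand of the TGF-beta superfamily, and Tdgf1 is the membrane-anchored co-receptor through which NODAL and Gdf3 reach activin receptors. Tdgf1 had 490.1 and 537 CPM in knockdown footprints against 662 and 592 CPM in control, and 641 and 626 CPM against 726 and 913 CPM in total RNA. It was lower in every knockdown library, at 81.9% of control in footprints and 77.3% in total RNA. Its log2 fold change was -0.29 ± 0.17 in footprints and -0.36 ± 0.17 in total RNA (limma adjusted p = 0.526 and 0.383). Its total RNA passed without control 1 (-0.53, limma adjusted p = 3.14e-05) and was -0.20 without control 2. Gdf3 had 75.6 and 113 CPM in knockdown footprints against 89.2 and 109 CPM in control, and 90.8 and 77.2 CPM against 70.0 and 116 CPM in total RNA. The groups overlapped in both assays, and the log2 fold changes of -0.10 ± 0.22 and -0.11 ± 0.25 (limma adjusted p = 0.885 and 0.882) were smaller than their errors. Their sign changed in footprints without knockdown 1 (0.19) or control 2 (0.049), and in total RNA without knockdown 2 (0.0082) or control 2 (0.26), and without control 1 the total RNA value was -0.47 with a limma adjusted p of 0.000768.

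The spread within groups was uneven between the assays. For 8 of the 9 markers the 2 total RNA controls were farther apart than the 2 knockdowns, as for 78.7% of all genes tested, and in footprints this held for 4 of 9 and 39.8%. The median distance between the total RNA controls was 0.51 on the log2 scale over the markers and 0.30 over all genes, and between the knockdowns 0.11 and 0.10. Control 2 was above control 1 for 7 of 9 markers in total RNA, the exceptions being Utf1 and Prdm14, and for 50.0% of all genes. A fit that keeps 1 total RNA control takes its spread from the close knockdown pair, and those fits called 6191 genes without control 1 and 3411 without control 2, so their adjusted p-values above rest on that pair.

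Next, the ratio of footprints to total RNA was compared, which reads whether ribosome occupancy moved apart from the RNA. The change of this ratio (translational efficiency) was the interaction of assay and knockdown over all 8 libraries. For Zfp42 the log2 ratio of footprints to total RNA was 0.27 and 0.13 in knockdown 1 and 2 and 0.54 and 0.21 in control 1 and 2. Its change was -0.18 ± 0.29 (limma adjusted p = 1.00), which is smaller than its error. For Nr0b1 the log2 ratios were 0.66 and 0.67 against 0.68 and -0.04, with a change of 0.34 ± 0.27. For Dppa3 they were 0.42 and 0.10 against 0.96 and 0.58, with a change of -0.51 ± 0.39. Dppa3 was the 1 marker whose ratios did not overlap between the groups, on the low side as were 12.6% of all genes (13.8% were on the high side), and the other 8 overlapped. This rests on pairing libraries by number, and opposite numbers were also paired, a choice made after the values were seen. The Dppa3 ratios were then -0.13 and 0.66 in knockdown against 0.42 and 1.12 in control, which overlap. With that pairing Nr0b1 was the 1 marker that separated, on the high side (11.4% of all genes). Its ratios were 0.839 and 0.4895 in knockdown against 0.152 and 0.4877 in control, so the groups nearly touched. The changes of the remaining 6 markers lay between -0.16 ± 0.36 (Utf1) and 0.09 ± 0.35 (Fbxo15). None of the 12358 genes was called by limma, 192 had an unadjusted p under 0.05 (0.599% lower, 0.955% higher), and no marker was among those. The sign of the change turned for Zfp42 without total RNA control 1 (0.079), while it kept its direction for Nr0b1 and Dppa3 in every fit that left out a library.

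**Figure D3:**
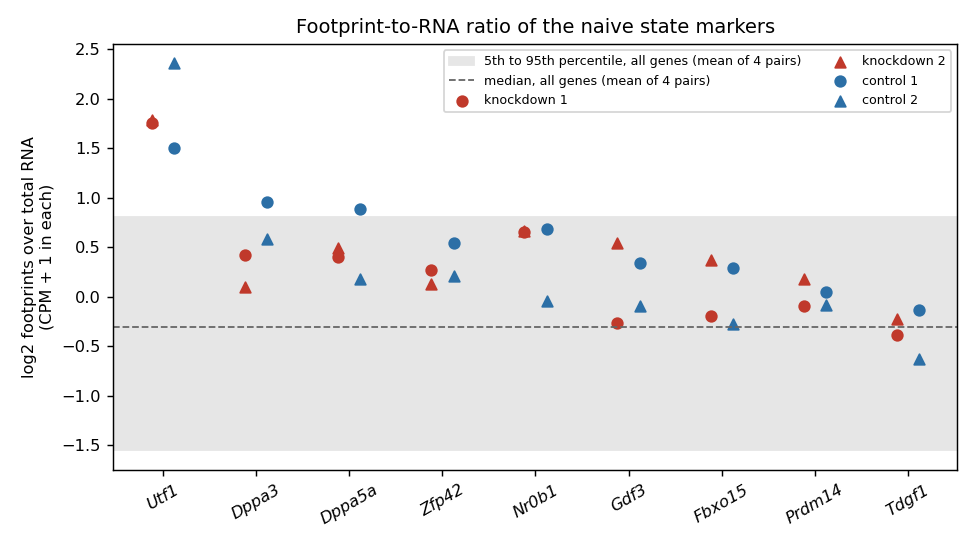
Log2 ratio of footprints to total RNA (each as CPM + 1) for the 9 markers, pairing libraries of the same replicate number; red is knockdown and blue control, circles replicate 1 and triangles replicate 2. The grey band spans the 5th to 95th percentile of all genes and the dashed line is their median; all 4 Utf1 points lie above the band, and at 1.51 to 2.36 above those of every other marker.

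Within the control libraries the markers spanned much of the range of this ratio, which is the place of a gene among all genes, since the tables were normalized separately. Utf1 had a mean log2 ratio of 1.93 ± 0.60 (SD, n = 2 pairs), which was rank 56 of 12358 genes and 4.68-fold the median gene. Dppa3 followed at 0.77 ± 0.27 (rank 627) and Dppa5a at 0.53 ± 0.50 (rank 1195). Zfp42 (0.38 ± 0.23) and Nr0b1 (0.32 ± 0.51) were at percentiles 85.2 and 83.0, and neighbours in this order from Dppa3 to Nr0b1 did not differ beyond their spread. Gdf3 (0.13 ± 0.31), Fbxo15 (0.01 ± 0.40) and Prdm14 (-0.02 ± 0.10) came next, and Tdgf1 was last at -0.38 ± 0.35 (rank 6804), near the median of all genes at -0.29. The pairs of Utf1 stood between percentiles 99.1 and 99.6 in knockdown and control alike, so its high ratio did not rest on 1 library. Transcript and coding lengths are not in the tables, and their part in the ratio was not tested.

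The markers were then set beside the rest of the pluripotency network, in lists of gene names chosen with earlier results of these data known. Of 17 genes of the naive network, transcription factors and the AKT cofactor Tcl1, 13 were negative in footprints (median -0.42) and 11 in total RNA (median -0.32). Tcl1 had -1.06 ± 0.19 in footprints and -0.92 ± 0.14 in total RNA, and Tbx3, a T-box factor downstream of LIF, had -0.95 ± 0.17 and -0.79 ± 0.28. Klf2 had -0.64 ± 0.16 and -0.54 ± 0.15, and Nanog -0.66 ± 0.21 and -0.42 ± 0.13. In both assays 6 of the 17 were lower in every knockdown library (Sox2, Nanog, Esrrb, Klf2, Tbx3 and Tcl1; 12.4% of all genes) and 1 was higher (Sall4; 12.3%). Sall4 separated in total RNA by a very small gap, with 526.6 CPM in knockdown 1 against 526.0 CPM in control 1. None of the 17 passed limma's threshold, and the authors' deposited table calls Tbx3 and Tcl1 lower in both assays (0.652% of all genes). In total RNA it calls 4 of the 17 lower, the others being Klf4 and Tfcp2l1 (3.19% of all genes). Zfp42 was lower than any of these 17 in footprints, and Zfp42 and Nr0b1 were lower than any in total RNA.

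Of 18 other stem cell state genes 13 were negative in footprints (median -0.24) and 12 in total RNA (median -0.08). The secreted glycoprotein gene Spp1 had -1.53 ± 0.19 and -1.35 ± 0.19, with 223 and 263 CPM in knockdown footprints against 624 and 783 CPM in control. Zfp57, which guards imprints, had -0.66 ± 0.17 and -0.62 ± 0.13, and the DNA demethylase gene Tet2 had -0.62 ± 0.21 and -0.73 ± 0.18. In both assays 6 of the 18 were lower in every knockdown library (12.4% of all genes). Dppa2 and Lin28a were the 2 that were higher (12.3%). The authors' deposited table calls Spp1 lower in both assays (0.652% of all genes), and Zfp57 and Tet2 in total RNA (3.19%).

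Genes of the formative and primed epiblast were split, with 8 of 13 tested positive in footprints (median 0.03) and 10 of 14 in total RNA (median 0.11). The Wnt pathway factor Lef1 had 16.8 and 21.1 CPM in knockdown footprints against 6.27 and 6.44 CPM in control (1.43 ± 0.24), and 1.86 ± 0.33 in total RNA. Sall2 had 1.23 ± 0.23 and 1.41 ± 0.25, the DNA methyltransferase gene Dnmt3a had 0.90 ± 0.17 and 1.15 ± 0.16, and Otx2 had 0.82 ± 0.25 and 1.18 ± 0.17. Fgf5 was tested in total RNA alone, at 3.79 and 3.68 CPM in the knockdown and 0.685 and 0.222 CPM in the control. Its control values rest on very few reads, 1 read being 0.114 CPM in control 1 and 0.111 CPM in control 2. Of this list 5 were higher in every knockdown library of both assays (Otx2, Dnmt3a, Dnmt3b, Lef1 and Sall2; 12.3% of all genes) and 1 was lower (12.4%), Foxd3, at -1.01 ± 0.21 and -1.09 ± 0.25. The authors' deposited table calls 3 of them higher in footprints (Dnmt3a, Lef1 and Sall2; 0.788% of all genes) and 6 in total RNA (2.21%), with Foxd3 lower in both.

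**Figure D4:**
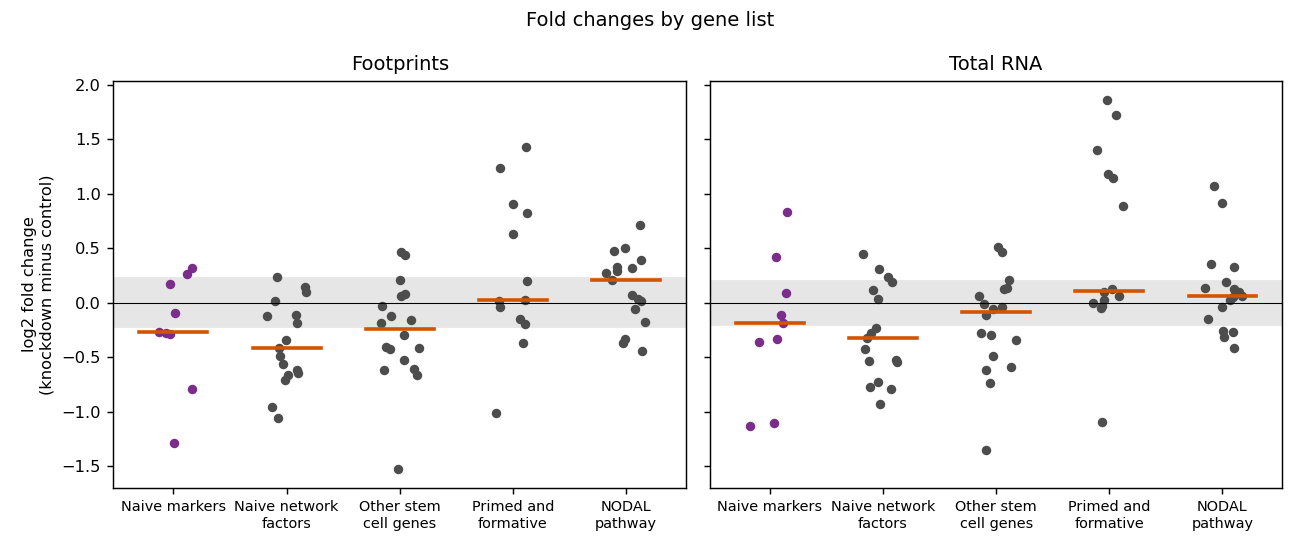
Log2 fold change, knockdown minus control, of each tested gene of 5 lists in footprints (left) and total RNA (right), with the 9 markers in purple, list medians as orange lines and the middle 50% of the genes tested in both assays as the grey band. The medians of the markers are -0.27 and -0.19, those of the naive network factors -0.42 and -0.32, and the primed and formative genes include the highest points.

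Around Tdgf1 and Gdf3, 17 of 21 NODAL pathway genes were tested, and 12 were positive in footprints (median 0.21) and 11 in total RNA (median 0.07). In footprints 9 were higher in every knockdown library and 0 lower, while in total RNA 5 were higher and 2 lower. Over all genes tested the shares were 22.3% higher and 22.5% lower in footprints, and 23.3% and 24.6% in total RNA. The ligand gene Nodal had 123 and 135 CPM in knockdown footprints against 98.5 and 96.7 CPM in control (0.39 ± 0.16), and its total RNA did not separate (0.07 ± 0.17). Foxh1, a partner of SMAD proteins on DNA, had 20.3 and 20.7 CPM in knockdown total RNA against 9.59 and 11.3 CPM in control (0.91 ± 0.17), and 0.48 ± 0.23 in footprints. The effector gene Smad3 had 0.72 ± 0.31 in footprints and -0.04 ± 0.23 in total RNA. Smad4, Foxh1 and Skil were among those higher in both assays, and the authors' deposited table calls Foxh1 higher in total RNA. None of these genes passed limma's threshold. Without total RNA control 1 the total RNA value of Nodal was -0.10 and that of Smad3 0.26, so neither sign held.

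Of 11 known protein partners of the markers 10 were tested, with 7 negative in footprints (median -0.15) and 6 in total RNA (median -0.04). Hspa5, the chaperone that binds Tdgf1 at the cell surface, had -0.51 ± 0.19 and -0.57 ± 0.20. Eed, a Polycomb subunit, had -0.45 ± 0.17 and -0.30 ± 0.20. Hspa5 and Eed were the 2 partners lower in every knockdown library of both assays, as were 12.4% of all genes. The gap of Eed in total RNA was small, with 245 CPM in knockdown 2 against 251 CPM in control 1. Ezh2, the Polycomb methyltransferase, had 140.0 and 188 CPM in knockdown footprints against 232 and 240.0 CPM in control (-0.54 ± 0.18), with a total RNA value of 0.03 ± 0.14. Cbfa2t2, the corepressor that works with Prdm14, had 0.43 ± 0.17 and 0.40 ± 0.25, and Cul1, the scaffold on which Fbxo15 acts, had 0.04 ± 0.19 and 0.27 ± 0.18. Of 9 genes listed as paralogs of the markers, or by a shared name, 4 were tested. Yy1, the relative of Zfp42, had 0.17 ± 0.16 and -0.06 ± 0.19, so its values did not follow those of Zfp42. Dppa4, listed for its name and not a paralog of any marker, was likewise near 0 (-0.12 ± 0.18 and -0.06 ± 0.13). Ooep, a KH-domain relative of Dppa5a, had -0.75 ± 0.18 and -0.57 ± 0.16, and Khdc3, another, had 0.18 ± 0.19 and -0.10 ± 0.28. Without total RNA control 2 the total RNA values of Ezh2 (-0.096), Yy1 (0.18), Khdc3 (0.33) and Dppa4 (0.012) changed sign, and without footprint knockdown 2 the footprint values of Khdc3 (-0.028) and Cul1 (-0.18) did. No partner or paralog was called by limma or in the authors' deposited table. RefSeq lists pseudogene copies of Zfp42, Dppa5a, Tdgf1 and Dppa3, none of which is in either table, so any sharing of reads with them is uncertain.

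Genes were also ranked by how closely they followed Zfp42 over the 8 libraries, by the Euclidean distance between profiles of log2(CPM + 1) centred within each assay. Among 8019 genes with a mean of at least 10 CPM in both tables, the nearest were Xrcc6, a subunit of the Ku complex of DNA end joining (distance 0.297), Bdh2, a dehydrogenase gene (0.315), Hmces, which shields abasic sites in DNA (0.322), Asns, asparagine synthetase (0.347), and the forkhead factor gene Foxd3 (0.350). Xrcc6 had 61.4 and 62.5 CPM in knockdown footprints against 140.1 and 149 CPM in control. Of the other markers Nr0b1 was the nearest, at rank 30 (0.568). Tdgf1 followed at rank 758, Dppa5a at 1399 and Prdm14 at 1497, then Gdf3 at 2931, Fbxo15 at 5937 and Utf1 at 7455, and Dppa3 was under the minimum level. The distances describe these libraries, which all comparisons here share, and carry no test.

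**Figure D5:**
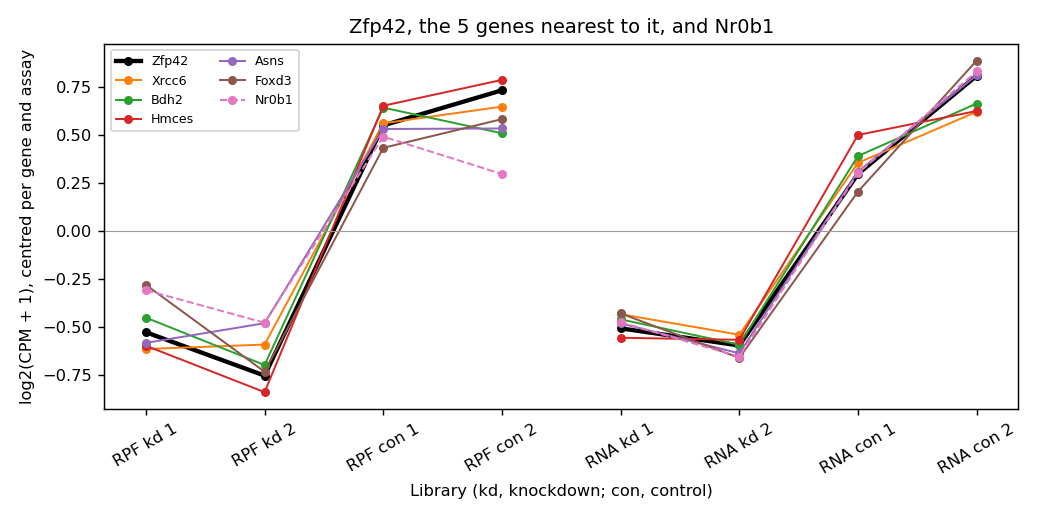
Log2(CPM + 1), centred for each gene within each assay, in the 8 libraries for Zfp42 (black), the 5 genes nearest to it and Nr0b1 (dashed); libraries have no order, and lines only join the points of a gene. All 7 genes lie below 0 in the 4 knockdown libraries and above 0 in the 4 controls, and in total RNA control 2 is the highest for each.

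By RefSeq's order of protein-coding genes, the genes next to the markers were read as well, a choice made after the values were seen. Of 18 neighbour places 13 hold a gene tested in both assays. In 5 of these the neighbour was lower in every knockdown library of both assays, and in 2 it was higher, against 12.4% and 12.3% of all genes. Triml2, beside Zfp42, had -0.42 ± 0.15 in footprints and -0.49 ± 0.15 in total RNA. Gdf3, Dppa3 and Nanog are consecutive on chromosome 6, and the 3 differed: Gdf3 overlapped between groups, Dppa3 was higher and Nanog was lower. The other lower neighbours were Ooep (beside Dppa5a), Cyb5a (beside Fbxo15; -0.45 ± 0.20 and -0.19 ± 0.16) and Lrrc2 (beside Tdgf1; -0.56 ± 0.24 and -0.56 ± 0.21). Cyb5a separated in total RNA by a small gap, with 68.4 CPM in knockdown 2 against 68.9 CPM in control 1. The higher neighbours were Kndc1 (beside Utf1, 0.34 ± 0.26 and 0.66 ± 0.24) and Dppa3 itself, as the neighbour of Gdf3.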

How the data were processed

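Footprints and total RNA of 2 knockdown and 2 control cultures were measured by ribosome profiling (TruSeq Ribo Profile kit, Ribo-Zero Gold, single-end reads of 50 bp, per the labels' protocols). Tools named in the submitters' processing notes, without their roles, are edgeR 3.26.8, HTSeq 0.11.2, TopHat2 2.1.1 and Bowtie 1.2.3, and the build is mm9. The library columns of the deposited tables are signal: reads divided by an effective library size, on the CPM scale (column sums from 894269 to 1058777). The deposited tables also hold p-values with FDR, log2 fold changes and mean log2 levels from the authors' fit, and a score, the likelihood ratio of that fit. Every column gave whole reads within 0.01 read for 100% of genes, 1 read being 0.0751 to 0.114 CPM. An automatic check could not tell this from rounding in footprint control 2, so count tests left that library out.

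Since these values are scaled, limma 3.58.1 (R 4.3.3) on log2(CPM + 1) with a trended prior gave the results, with Benjamini-Hochberg adjustment over all genes at 0.05; fold changes on this scale understate those of low genes. Genes were kept by filterByExpr (edgeR 4.0.16, minimum count 10, minimum total 15), leaving 12723 in footprints, 13436 in total RNA and 12358 in both. Knockdown was compared with control within each table, with 2 residual degrees of freedom, and translational efficiency was the assay by knockdown interaction over 8 libraries. With 2 libraries against 2, an exact permutation test on 1 gene cannot reach the threshold. On whole reads edgeR's quasi-likelihood test called 3 genes in footprints and 0 in total RNA, and DESeq2 1.42.0 called 10 and 272. The fits were tested on simulated data. Other alternatives were a pseudocount of 0.5, no filter, median centring, quantile normalization, a replicate block, 1 fit of all libraries, and leaving out each library. The markers and 11 lists were chosen with earlier results of these data known. Named genes are the markers, Eif4a2, the 5 genes nearest to Zfp42, and for each list those with the 3 smallest p in a comparison, with any tested NODAL, partner, paralog, naive network or primed gene. Triml2, Cyb5a, Lrrc2 and Kndc1 were named after their values were seen.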

Additional observations from a re-analysis of the deposited data

How the results depend on the processing

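No library was left out of the results above, and with 2 libraries per group each one weighs heavily. The count of genes called by limma was 0 in footprints and became 40 with median centring, 89 with all 8 libraries in 1 fit, 3 with edgeR and 10 with DESeq2 on 3 libraries, and 1 to 36 when 1 library was left out. In total RNA it was 0 and became 97 with all 8 libraries in 1 fit, 272 with DESeq2, and 34 to 6191 when 1 library was left out. For translational efficiency it was 0 and became 0 to 1 when 1 library was left out. The same replicate numbers stand in every group, but with 2 pairs they share only a number (correlation of same-numbered deviations 0.17 in footprints and -0.15 in total RNA). With the replicate block 21 genes were called in footprints (0.165% of all genes) and 636 in total RNA (4.73%). The total RNA calls included Zfp42 and Nr0b1. With the crossed replicate block, chosen after seeing the data, 924 were called in total RNA (6.88% of all genes), among them 3 of the 9 markers.

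Zfp42 stayed negative under every alternative, between -1.40 and -1.16 in footprints and between -1.36 and -0.85 in total RNA, and Nr0b1 between -0.89 and -0.69 and between -1.40 and -0.87. Zfp42 was called in footprints with all 8 libraries in 1 fit (adjusted p = 0.0306) and with DESeq2 (0.0363), with adjusted p from 0.0306 to 0.662 over its alternatives. In total RNA both were called with the replicate block, with all 8 libraries and with DESeq2. The median over the 9 markers in total RNA ranged from -0.36 to -0.055 when 1 library was left out. The sign turned for Gdf3 in footprints with edgeR (0.081) and DESeq2 (0.085), for its translational efficiency with median centring (-0.026), for Cul1 with median centring (-5.22e-05) and for Dppa4 with quantile normalization (0.019), both in footprints. Leaving out 1 library in turn gave log2 fold changes with both signs for these genes. The lowest and highest in footprints were for Fbxo15 -0.21 to 0.56, Gdf3 -0.38 to 0.19, Khdc3 -0.028 to 0.39, Klf4 -0.90 to 0.061, Cul1 -0.18 to 0.27 and Dppa4 -0.32 to 0.075. The lowest and highest in total RNA were for Fbxo15 -0.16 to 0.34, Utf1 -0.055 to 0.90, Gdf3 -0.47 to 0.26, Nodal -0.10 to 0.23, Smad3 -0.34 to 0.26, Ezh2 -0.096 to 0.15, Yy1 -0.31 to 0.18, Khdc3 -0.53 to 0.33 and Dppa4 -0.13 to 0.012. The lowest and highest in translational efficiency were for Zfp42 -0.43 to 0.079, Prdm14 -0.12 to 0.25, Dppa5a -0.27 to 0.094, Fbxo15 -0.30 to 0.47, Utf1 -0.64 to 0.32, Tdgf1 -0.090 to 0.24, Gdf3 -0.35 to 0.37 and Eif4a2 -0.89 to 0.13. The cause was not tested. Among the markers depth limits Dppa3 most, with as few as 22 reads in a library.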
